A study of Rattus norvegicus with 12 samples.

Results

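The integrin subunit genes Itga1, Itga3, Itga5, Itga6, Itga11, Itgav, Itgb1, Itgb3, Itgb5 and Itgb8 were followed in rat kidney fibroblasts. They were chosen by name, as subunits that bind matrix or take part in TGF-beta activation, and all 10 were found among 43360 counted genes and were among the 14601 tested. The cells were NRK-49F, a fibroblast line derived from normal rat kidney, and messenger RNA was sequenced after poly(A) selection. They had been transfected with the empty vector pcDNA3.1 or with a plasmid for human HDAC1, a histone deacetylase, carrying a Flag tag. After that, both kinds of cells were kept for 24 hours in medium with 0.5% FBS, either alone (vehicle) or with TGFB1, a profibrotic cytokine, at 2 ng/ml. Crossing the plasmids with the treatments gives 4 groups of 3 libraries each. Libraries were placed by their titles, because the treatment field of the TGFB1 libraries carries a running number instead of a dose. All libraries come from 1 cell line, the added HDAC1 is human in rat cells, and the labels do not say that replicates were separate cultures. The p-values therefore measure the spread between these libraries.

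Integrins are membrane receptors made of 1 alpha and 1 beta chain that couple the extracellular matrix to the actin cytoskeleton through talin and kindlin. The alpha 1 and alpha 11 chains pair with beta 1 to bind collagen, and alpha 3 and alpha 6 form laminin receptors. The classical fibronectin receptor is alpha 5 with beta 1, and alpha v pairs with beta 1, beta 3, beta 5, beta 6 or beta 8. Several alpha v integrins, beta 8 among them, bind the latency peptide of TGF-beta and help release the active cytokine. In fibroblasts these receptors serve adhesion, contraction and matrix assembly.

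Library totals ran from 18397093 to 36652084 counts. Of 10 fibroblast markers, 8 had a named row (not Thy1 and Lum), and their summed level was 8968 to 16893 CPM (counts scaled to a common library size). In vehicle the sum was 11200 to 12885 CPM with the empty vector and 8968 to 10493 CPM with HDAC1. With TGFB1 it was 13922 to 16893 CPM with the empty vector and 11858 to 13963 CPM with HDAC1. Among these markers Dcn had only 4 to 25 counts per library. Of 9 kidney epithelium markers, 3 had a named row and summed to 1145 to 1760 CPM. Their sum was higher with HDAC1, at 1436 to 1688 against 1145 to 1247 CPM in vehicle. With TGFB1 it was 1685 to 1760 CPM with HDAC1 against 1358 to 1536 CPM with the empty vector. The part of these marker differences in the integrin values was not tested. Krt8 had 21573 to 56787 counts per library, Pax8 had 9 to 39 and Slc34a1 had 7 to 31. The Hdac1 row was 2.01-fold higher in the HDAC1 libraries in vehicle and 1.74-fold higher with TGFB1, while Hdac1l, a close copy, was at 1172 against 8.29 CPM without and 1090 against 9.30 CPM in the presence of TGFB1; reads of the human plasmid and of the rat genes cannot be told apart in these counts. Heart muscle markers (19 of 19 measured, none at 0 counts) summed to 72.3 CPM in empty vector vehicle replicate 1 and to at most 395 CPM in that group. Their sum was 233 to 443 CPM in HDAC1 with vehicle, 416 to 530 CPM in empty vector with TGFB1 and 144 to 160 CPM in HDAC1 with TGFB1. The brain marker sum (14 of 16 measured, none at 0 counts) was likewise lower in HDAC1 with TGFB1, at 72.1 to 78.3 CPM. It was 128 to 136 CPM in empty vector with TGFB1. In vehicle it was 89.4 to 163 CPM with the empty vector and 130 to 174 CPM with HDAC1. Map2 had 620 to 2619 counts per library, and Mbp, next by its largest count, had 40 to 385. For HDAC1 with TGFB1 the brain markers ran from -2.56 to 0.17 on the log2 scale, with a median of -1.51. Values with the mean heart and brain marker level as a covariate are given below where they change a call of a named gene.

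TGFB1 moved the subunits in both directions. With the empty vector, 4 of the 10 subunits rose (Itga1, Itgb3, Itga5 and Itgb1) and 3 fell (Itga3, Itgb8 and Itga6), against a background of 50.9% of all genes called in that comparison (25.9% higher and 25% lower). With HDAC1, 5 rose and 3 fell, Itgav being the addition, against 49.1% of all genes (24.9% higher and 24.2% lower). HDAC1 itself left most subunits within the spread: 0 of 10 were higher and 2 lower in vehicle (background 14%, with 6.64% higher and 7.32% lower), and 1 was higher and 1 lower with TGFB1 (background 6.53%, with 2.17% higher and 4.36% lower). The member with the clearest HDAC1 effect was Itga11, whose level did not overlap between the 6 HDAC1 and the 6 empty vector libraries. The median log2 change of the 10 members was 0.13 for TGFB1 in empty vector cells and 0.10 in HDAC1 cells, beside 0.0125 and -0.0194 over all genes. For HDAC1 it was -0.07 in vehicle and -0.09 with TGFB1, beside -0.00822 and -0.00152. The 2 TGFB1 comparisons use different libraries, but each of them shares libraries with the HDAC1 comparisons.

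**Figure D1:**
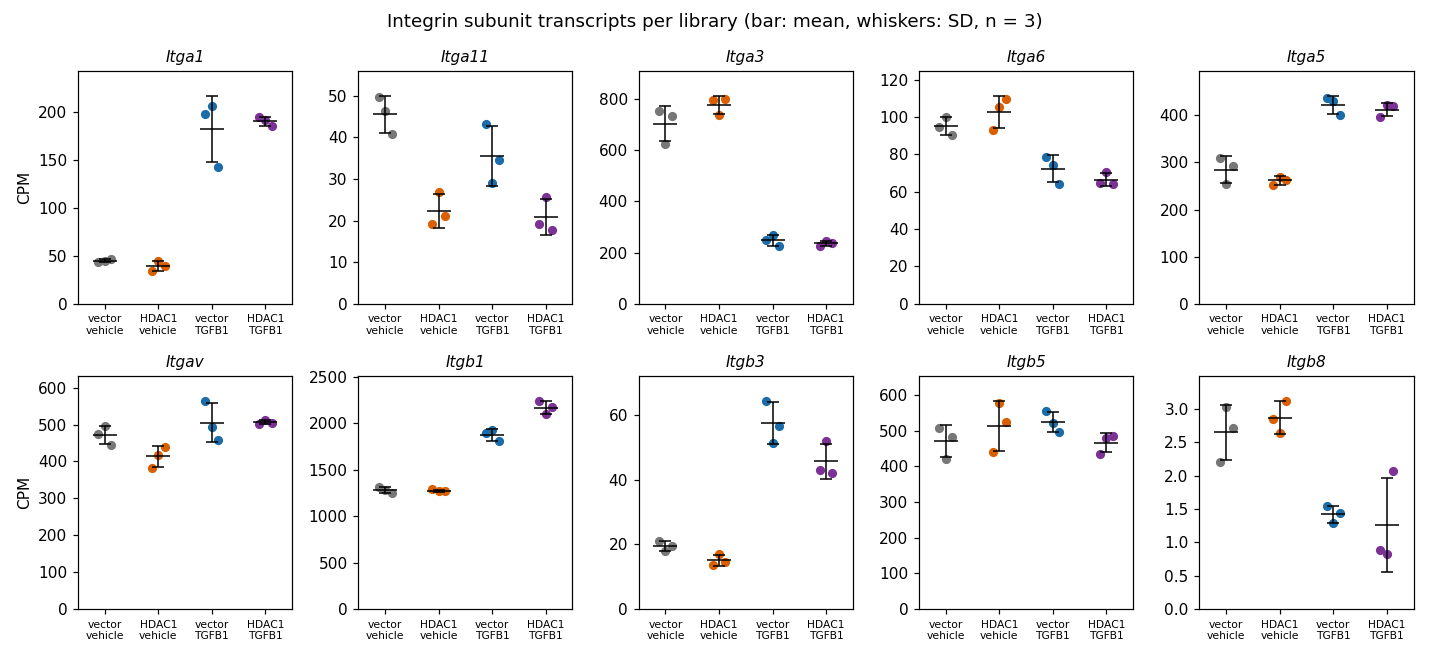
CPM of each integrin subunit in every library, by group: points are libraries, the bar is the mean and whiskers are the SD (n = 3); each panel has its own linear axis from 0. The 6 TGFB1 libraries lie beyond all 6 vehicle libraries for 7 subunits, and the 6 HDAC1 libraries lie below all 6 empty vector libraries for Itga11, at 17.6 to 26.9 against 29.0 to 49.6 CPM.

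The sequence around the start of 3 subunits that behaved differently is shown for reference: Itga1 rose with TGFB1, Itga3 fell with TGFB1, and Itga11 was lower with HDAC1. The windows hold 250 bases before and 50 bases after the annotated start, taken from RefSeq with the rat build GRCr8, in the direction of transcription. Such a window was matched for 8 of the 10 members (not for Itga6 and Itgb3). Capitals mark CAGAC, the SMAD box, or its reverse complement GTCTG, and GGGCGG, the GC box, or its reverse complement CCGCCC.
Itga1: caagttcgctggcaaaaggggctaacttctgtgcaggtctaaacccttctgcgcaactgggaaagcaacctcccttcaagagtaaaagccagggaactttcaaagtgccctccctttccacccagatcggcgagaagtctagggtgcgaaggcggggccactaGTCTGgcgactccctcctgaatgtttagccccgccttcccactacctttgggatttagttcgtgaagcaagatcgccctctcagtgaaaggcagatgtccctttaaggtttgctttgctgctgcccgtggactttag
Itga3: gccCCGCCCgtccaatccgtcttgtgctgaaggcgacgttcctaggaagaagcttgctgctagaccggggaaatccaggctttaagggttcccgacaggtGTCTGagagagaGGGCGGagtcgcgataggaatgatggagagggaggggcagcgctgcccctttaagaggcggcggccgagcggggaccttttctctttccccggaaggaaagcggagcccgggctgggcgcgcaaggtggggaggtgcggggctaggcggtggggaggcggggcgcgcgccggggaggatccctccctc
Itga11: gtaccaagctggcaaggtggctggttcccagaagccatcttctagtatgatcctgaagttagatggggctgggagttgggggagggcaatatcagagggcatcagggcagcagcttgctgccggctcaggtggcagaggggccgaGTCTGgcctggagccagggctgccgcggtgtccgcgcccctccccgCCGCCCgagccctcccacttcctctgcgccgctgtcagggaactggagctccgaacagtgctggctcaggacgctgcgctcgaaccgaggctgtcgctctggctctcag
These windows are chr2:48545234-48545533 on the minus strand for Itga1, chr10:80518852-80519151 on the minus strand for Itga3 and chr8:72041182-72041481 on the plus strand for Itga11. The SMAD box letters lie 87 bases before the start in Itga1, 150 before it in Itga3 and 105 before it in Itga11. Itga3 has GC box letters at 247 and 138 bases before the start, and Itga11 has them at 59. On either strand, CAGAC was found in 7 of the 8 matched members (all but Itgb8) and in 50.1% of 33469 promoter windows of the same length. GGGCGG was found in 6 of the 8 (Itga3, Itga5, Itga11, Itgav, Itgb1 and Itgb8) and in 33.1% of all windows. The letters of these 2 motifs can share 1 base. TGANTCA, the AP-1 element, was found in 0 of the 8 (7.3% of all windows), and TATAAA, the TATA box, also in 0 of the 8 (14.2%). The matched member windows had 53.7 to 76.7% G and C, against a median of 51.7% over all windows. The letters were searched in these windows only, and binding was not measured.

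Among the collagen-binding alpha chains, Itga1 (ENSRNOG00000053550) gave the largest rise of the 10 members. Its levels were 43.7, 45.0 and 46.4 CPM in empty vector with vehicle and 34.5, 44.3 and 39.8 CPM in HDAC1 with vehicle. With TGFB1 they were 198, 207 and 142 CPM with the empty vector and 195, 191 and 185 CPM with HDAC1. All TGFB1 libraries were above all vehicle libraries, although empty vector with TGFB1 replicate 3 was well below its companions, and groups with the same treatment overlapped. The rise was 4.05-fold with the empty vector (log2 2.02 ± 0.12 SE, edgeR adjusted p = 6.72e-10) and 4.83-fold with HDAC1 (log2 2.27 ± 0.12, edgeR adjusted p = 1.7e-10). In these bulk libraries, a change in RNA per cell and a change in the share of cells that express a gene cannot be told apart. In the RefSeq table Itga1 overlaps Pelo, a ribosome rescue factor gene, and strand use in counting is not stated. Pelo itself was 99.0 and 127 CPM in the empty vector groups without and with TGFB1, and 98.6 and 131 CPM in the HDAC1 groups.

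Itga11 (ENSRNOG00000006723), the collagen receptor chain typical of mesenchymal cells, had another pattern. Its levels in empty vector with vehicle were 49.6, 46.2 and 40.7 CPM, and in HDAC1 with vehicle 19.1, 26.9 and 21.0 CPM. With TGFB1 they were 43.3, 29.0 and 34.5 CPM with the empty vector and 19.3, 25.8 and 17.6 CPM with HDAC1. The HDAC1 groups lay apart from the empty vector groups under either treatment, while the vehicle and TGFB1 groups of the same plasmid overlapped. Itga11 was 2.04-fold lower with HDAC1 in vehicle (log2 -1.03 ± 0.17, edgeR adjusted p = 0.00201) and 1.70-fold lower with TGFB1 (log2 -0.76 ± 0.18, edgeR adjusted p = 0.0286). Only 1.3% of all genes tested had 6 HDAC1 libraries beyond all 6 empty vector libraries in either direction. In vehicle the call was kept without any single library, at -1.18 to -0.91. With TGFB1 the call ended without empty vector with TGFB1 replicate 1 (-0.60) or replicate 3 (-0.78), without HDAC1 with TGFB1 replicate 1 (-0.71) or replicate 3 (-0.65), and with the heart and brain covariate (-0.83, edgeR adjusted p = 0.167). TGFB1 gave -0.35 ± 0.17 with the empty vector (edgeR adjusted p = 0.107), which became a call without empty vector with TGFB1 replicate 1 (-0.54), without HDAC1 with TGFB1 replicate 2 (-0.37) and with a fit to the groups compared alone (-0.36, edgeR adjusted p = 0.0317). With HDAC1 the TGFB1 value was -0.08 ± 0.18. In total 3 long noncoding genes overlap Itga11 in the RefSeq table, and their reads could be shared with it.

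The other collagen-binding alpha chains belong to the 17 further integrin genes that were listed, of which 10 were tested and the other 7 are not analysed here. Itga2, which pairs with beta 1 as a collagen and laminin receptor, rose 7.55-fold with the empty vector, from 15.8 to 119 CPM (log2 2.92 ± 0.10, edgeR adjusted p = 2.49e-14). In HDAC1 cells it rose 6.95-fold, from 21.7 to 151 CPM. It was also 1.38-fold higher with HDAC1 in vehicle (edgeR adjusted p = 0.00632) and 1.27-fold higher with TGFB1 (log2 0.34, edgeR adjusted p = 0.03). The second of these calls ended without replicate 1 (0.26) or 3 (0.33) of HDAC1 with TGFB1, without replicate 1 (0.37) or 3 (0.24) of empty vector with TGFB1, and with the heart and brain covariate (0.42, edgeR adjusted p = 0.199). Itga10, the fourth chain of this class, is scarce here, at 2.22 CPM in empty vector with vehicle, and fell by 1.29 on the log2 scale with the empty vector and by 0.70 with HDAC1. The latter call ended without replicate 1 (-0.68) or 3 (-0.57) of HDAC1 with vehicle, without replicate 1 (-0.65) or 2 (-0.72) of HDAC1 with TGFB1, without the filter on low counts (-0.71) and with the covariate (-0.74). Of the 4 collagen-binding alpha chains, therefore, Itga1 and Itga2 rose with TGFB1, Itga10 fell, and Itga11 did not pass the test.

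Itga3 and Itga6, the members classed here as laminin receptor chains, both fell with TGFB1. For Itga3 (ENSRNOG00000004276), the levels were 752, 625 and 732 CPM in empty vector with vehicle and 795, 735 and 798 CPM in HDAC1 with vehicle. They were 249, 267 and 225 CPM in empty vector with TGFB1 and 225, 245 and 238 CPM in HDAC1 with TGFB1. The vehicle libraries all lay above the TGFB1 libraries, and the plasmid groups overlapped within each treatment. The fall was 2.84-fold with the empty vector (log2 -1.51 ± 0.08, edgeR adjusted p = 1.76e-12) and 3.28-fold with HDAC1 (log2 -1.72 ± 0.08, edgeR adjusted p = 2.71e-13). Itga6 (ENSRNOG00000001518), which pairs with beta 1 or with beta 4, changed less. Its levels were 94.8, 100.2 and 90.4 CPM in empty vector with vehicle, 93.0, 106 and 110 CPM in HDAC1 with vehicle, 78.7, 74.2 and 64.4 CPM in empty vector with TGFB1, and 64.9, 70.4 and 64.3 CPM in HDAC1 with TGFB1. Here too the treatments did not overlap, with falls of 0.39 ± 0.08 (edgeR adjusted p = 0.000265) and 0.62 ± 0.08 (edgeR adjusted p = 1.19e-06) on the log2 scale. HDAC1 did not change either gene beyond the threshold under either treatment. LOC102546327, a long noncoding gene, overlaps Itga3 in the RefSeq table.

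Further laminin receptor chains were Itgb4 and Itga7. Itgb4, the partner of alpha 6 in hemidesmosomes, fell from 11.2 to 1.64 CPM with the empty vector (log2 -2.77 ± 0.19, edgeR adjusted p = 1.4e-10) and from 8.81 to 1.15 CPM with HDAC1 (-2.90 ± 0.20). Itga7, a laminin receptor chain known from muscle, fell from 9.82 to 3.89 CPM with the empty vector (-1.34 ± 0.14) and was 2.83-fold lower with HDAC1. Itga2, which binds laminin as well as collagen, rose, as given above. The plot of TGFB1 responses with either plasmid sets the 19 tested subunits side by side.

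**Figure D2:**
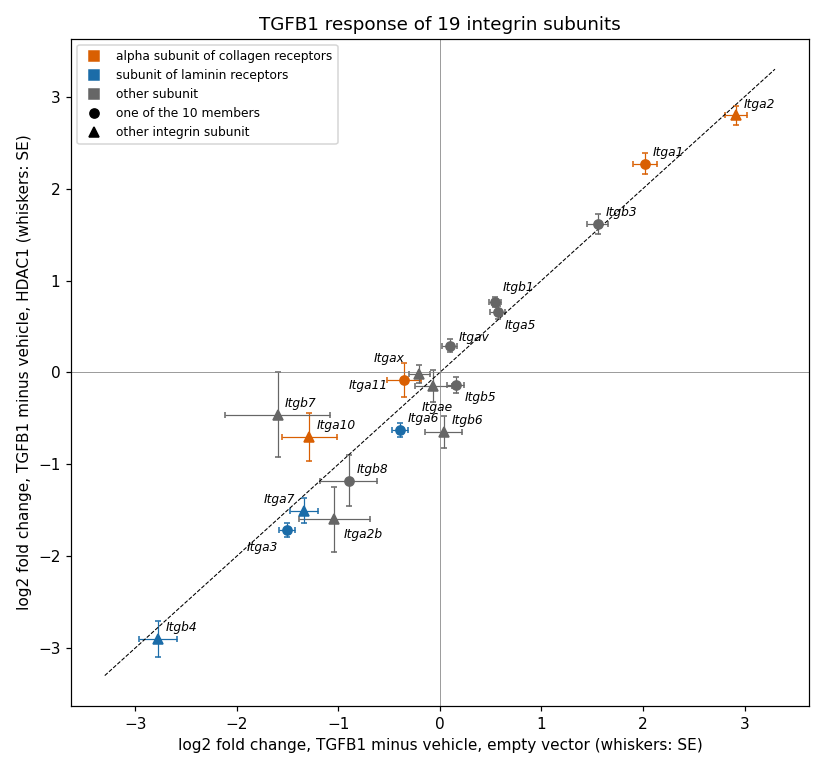
TGFB1 response (log2 fold change, TGFB1 minus vehicle) of the 19 tested integrin subunits with the empty vector (horizontal axis) and with HDAC1 (vertical axis); whiskers are SE, circles are the 10 members, triangles other subunits, and the dashed line marks equal change. Itga2, Itga1 and Itgb3 stand at the upper right, at 2.92, 2.02 and 1.56 with the empty vector, and Itgb4, Itga3 and Itga7 at the lower left, at -2.77, -1.51 and -1.34. Others below 0 on both axes include Itgb7, Itga10 and Itga2b, at -1.60, -1.29 and -1.04 with the empty vector.

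Itga5 and Itgb1, the chains of the fibronectin receptor, both rose with TGFB1. Itga5 (ENSRNOG00000057451) was at 309, 255 and 292 CPM in empty vector with vehicle and at 436, 431 and 401 CPM in empty vector with TGFB1. In HDAC1 cells it was at 253, 270 and 263 CPM with vehicle and 396, 421 and 420 CPM with TGFB1. The treatments did not overlap, and the plasmids did within each treatment. The rise was 1.48-fold with the empty vector (log2 0.57 ± 0.07, edgeR adjusted p = 6.71e-07) and 1.57-fold with HDAC1 (log2 0.65 ± 0.07, edgeR adjusted p = 1.17e-07).

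Itgb1 (ENSRNOG00000010966) encodes the beta chain shared by the collagen, laminin and fibronectin receptors above. It was at 1314, 1285 and 1253 CPM in empty vector with vehicle and at 1287, 1270 and 1266 CPM in HDAC1 with vehicle. With TGFB1 it was at 1891, 1930 and 1804 CPM with the empty vector and at 2236, 2094 and 2172 CPM with HDAC1. The vehicle groups overlapped, whereas with TGFB1 the 3 HDAC1 libraries were all above the 3 empty vector libraries. TGFB1 raised it 1.46-fold with the empty vector (log2 0.55 ± 0.06, edgeR adjusted p = 1.35e-07) and 1.70-fold with HDAC1 (log2 0.77 ± 0.06, edgeR adjusted p = 1.15e-09). It was the only member called higher with HDAC1, by 1.16-fold with TGFB1 (log2 0.21 ± 0.06, edgeR adjusted p = 0.0391), against -0.01 in vehicle (edgeR adjusted p = 0.932). That call with TGFB1 ended without replicate 1 (0.21) or 3 (0.18) of empty vector with TGFB1, without replicate 1 (0.18), 2 (0.23) or 3 (0.21) of HDAC1 with TGFB1, with a fit to the groups compared alone (edgeR adjusted p = 0.0707), and with the heart and brain covariate (0.17, edgeR adjusted p = 0.435). The part of the marker level in this difference cannot be told apart from HDAC1, since the HDAC1 with TGFB1 libraries all had the lower marker sums. LOC134483511 overlaps Itgb1 in the RefSeq table.

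The alpha v chain and its beta partners did not move as a block. Itgav (ENSRNOG00000004912) was at 474, 496 and 446 CPM in empty vector with vehicle, 383, 417 and 440 CPM in HDAC1 with vehicle, 564, 493 and 459 CPM in empty vector with TGFB1, and 501, 512 and 504 CPM in HDAC1 with TGFB1. The 3 HDAC1 vehicle libraries lay below the empty vector vehicle libraries, and the other neighbouring groups overlapped. TGFB1 raised it 1.22-fold with HDAC1 (log2 0.29 ± 0.07, edgeR adjusted p = 0.00256), and gave 0.10 ± 0.07 with the empty vector (edgeR adjusted p = 0.272). The HDAC1 value in vehicle was -0.19 ± 0.07 (edgeR adjusted p = 0.0944), which became a call without empty vector with TGFB1 replicate 3 (-0.18).

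Itgb3 (ENSRNOG00000048449), the beta chain of the vitronectin receptor alpha v beta 3, gave the second largest rise. Its levels were 21.0, 18.02 and 19.5 CPM in empty vector with vehicle and 13.5, 17.0 and 14.6 CPM in HDAC1 with vehicle, groups that did not overlap. With TGFB1 they were 64.3, 51.4 and 56.6 CPM with the empty vector and 43.1, 52.0 and 42.2 CPM with HDAC1, which overlapped by 1 library. TGFB1 raised it 2.94-fold with the empty vector (log2 1.56 ± 0.10, edgeR adjusted p = 1.5e-10) and 3.06-fold with HDAC1 (log2 1.61 ± 0.11, edgeR adjusted p = 1.06e-10). In vehicle it was 1.31-fold lower with HDAC1 (log2 -0.38 ± 0.11, edgeR adjusted p = 0.0221). That call ended without empty vector vehicle replicate 1 (-0.33) or 3 (-0.37), without HDAC1 vehicle replicate 1 (-0.29) or 3 (-0.35), and with the heart and brain covariate (-0.36, edgeR adjusted p = 0.0647). With TGFB1 the HDAC1 value was similar in size, at -0.33 ± 0.10 (edgeR adjusted p = 0.0527), and it became a call with DESeq2 (adjusted p = 0.0468), without the filter on low counts (edgeR adjusted p = 0.00467), and without replicate 2 of empty vector with TGFB1 (-0.38), of HDAC1 with TGFB1 (-0.43) or of HDAC1 with vehicle (-0.33). Of the platelet partner of beta 3, Itga2b, 1.45 CPM were counted in empty vector with vehicle and 0.71 CPM in empty vector with TGFB1 (log2 -1.04 ± 0.35, edgeR adjusted p = 0.017). That call ended without empty vector vehicle replicate 1 (-0.92), without replicate 1 (-0.77) or 2 (-0.97) of empty vector with TGFB1, and with the covariate (-0.97, edgeR adjusted p = 0.0541).

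Itgb5 (ENSRNOG00000001795), another vitronectin receptor chain, passed the test in no comparison. Its levels were 509, 421 and 483 CPM in empty vector with vehicle, 440, 578 and 523 CPM in HDAC1 with vehicle, 554, 522 and 496 CPM in empty vector with TGFB1, and 435, 479 and 484 CPM in HDAC1 with TGFB1. Neighbouring groups in the order of means all overlapped. The TGFB1 values were 0.15 ± 0.09 with the empty vector and -0.14 ± 0.09 in HDAC1 cells, which became a call without HDAC1 vehicle replicate 1 (-0.24).

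Itgb8 (ENSRNOG00000006569), whose product with alpha v presents latent TGF-beta, was counted with few reads, 16 to 108 per library. Its levels were 2.21, 3.02 and 2.72 CPM in empty vector with vehicle, 2.85, 2.63 and 3.12 CPM in HDAC1 with vehicle, 1.54, 1.28 and 1.439 CPM in empty vector with TGFB1, and 0.883, 0.817 and 2.08 CPM in HDAC1 with TGFB1. All TGFB1 libraries were below all vehicle libraries, with HDAC1 with TGFB1 replicate 3 nearest to them. It fell by 0.90 ± 0.28 with the empty vector (edgeR adjusted p = 0.0113) and by 1.18 ± 0.28 with HDAC1 (edgeR adjusted p = 0.00146) on the log2 scale. Itgb6, the other beta chain best known for TGF-beta activation, had group means of 2.71 and 4.15 CPM in vehicle (empty vector, then HDAC1) and of 2.79 and 2.65 CPM in the presence of TGFB1. It was higher with HDAC1 in vehicle (log2 0.61 ± 0.17, edgeR adjusted p = 0.0205), a call that ended without HDAC1 vehicle replicate 3 (0.61) and without replicate 1 (0.58) or 2 (0.60) of empty vector with vehicle, and fell with TGFB1 in HDAC1 cells (-0.65 ± 0.17, edgeR adjusted p = 0.0041).

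Among the remaining tested genes, Itgax, a leukocyte integrin chain, was 1.36-fold higher with HDAC1 in the presence of TGFB1, at 43.6 against 32.0 CPM (log2 0.44, edgeR adjusted p = 0.0149). That call ended without replicate 1 (0.39) or 3 (0.38) of HDAC1 with TGFB1, without empty vector with TGFB1 replicate 3 (0.35), and with the covariate (0.30, edgeR adjusted p = 0.378). Leukocyte and platelet markers were scarce: 3 of 12 had a named row, Itga2b itself among them, and they summed to 3.00 to 12.3 CPM over the libraries. The leukocyte beta chain gene Itgb2, also on that list, had no named row. Itgb7, another leukocyte chain, was under 1 CPM in every group mean, and fell with TGFB1 with the empty vector (log2 -1.60, edgeR adjusted p = 0.0144), a call that ended without empty vector vehicle replicate 1 (-1.17), without empty vector with TGFB1 replicate 3 (-1.28) and with the covariate (-1.05). Itgbl1, an integrin beta-like gene that is not a receptor subunit, fell by 1.82 with the empty vector and by 1.67 with HDAC1 on the log2 scale. Of the 10 further genes tested, 1 rose and 6 fell with TGFB1 under either plasmid, and 2 were higher and 0 lower with HDAC1 under either treatment, against the backgrounds given above. With the covariate, 0 were called for HDAC1 with TGFB1.

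**Figure D3:**
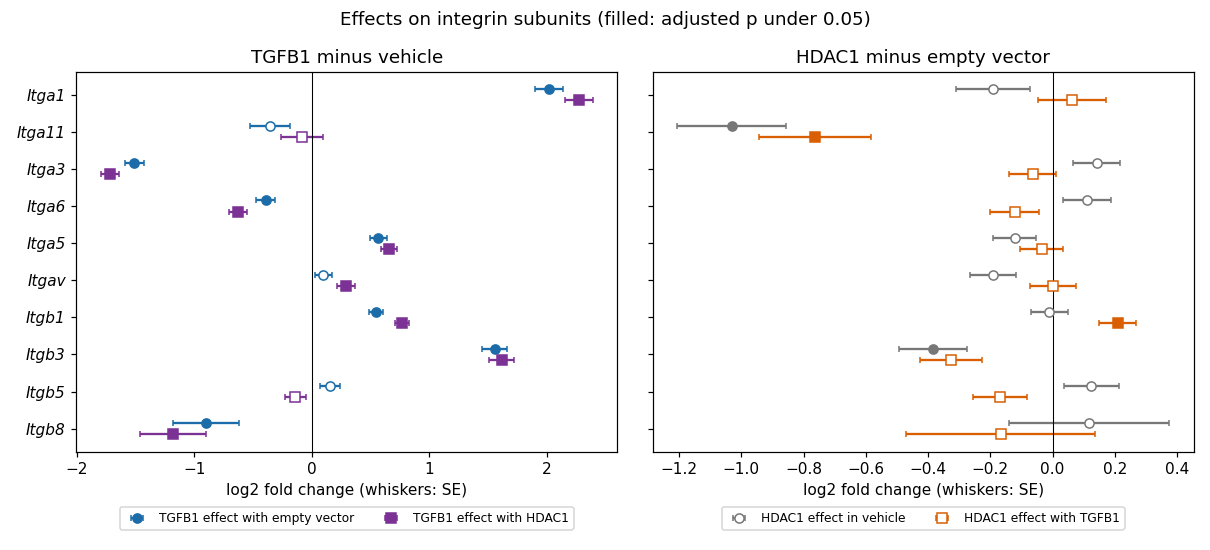
Log2 fold change with SE of each member for TGFB1 minus vehicle (left) and HDAC1 minus empty vector (right); filled symbols have an edgeR adjusted p under 0.05 over all genes tested. On the left Itga1 and Itgb3 lie farthest to the right and Itga3 farthest to the left, at 2.02, 1.56 and -1.51 with the empty vector; on the right Itga11 lies farthest from 0, at -1.03 in vehicle and -0.76 with TGFB1.

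Counts of non-overlapping groups put the HDAC1 results in proportion. Of the 10 members, 3 had 3 HDAC1 libraries beyond all 3 empty vector libraries in vehicle (Itga11, Itgav and Itgb3), against 32.5% of all genes. With TGFB1 it was also 3 (Itga11, Itgb1 and Itgb5), against 28.8%. For TGFB1 the count was 7 with the empty vector, against 56%, and 8 with HDAC1, against 60.7%. Over both plasmids, 7 members had all 6 TGFB1 libraries beyond all 6 vehicle libraries, 4 above and 3 below, against 34.1% of all genes.

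Whether HDAC1 acted differently with and without TGFB1 was tested as an interaction. No member passed with edgeR, where the background was 0.479% of all genes (0.137% higher and 0.342% lower). An unadjusted p under 0.05 in edgeR was found for 1887 of the 14601 genes tested, among them 3 members. These were Itgb1 (0.22 ± 0.08, unadjusted p = 0.0159 and adjusted p = 0.247 in edgeR), Itgb5 (-0.29 ± 0.12, adjusted p = 0.31 in edgeR) and Itga6 (-0.23, adjusted p = 0.378 in edgeR). DESeq2 called 1 member, Itgb1 (0.23, adjusted p = 0.0274). For Itga11, the member lowest with HDAC1, the interaction was 0.27 ± 0.25 (edgeR adjusted p = 0.712). The calls of HDAC1 in 1 treatment and not in the other, as for Itgb1 and Itgb3, were therefore not shown to differ between treatments by edgeR.

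**Figure D4:**
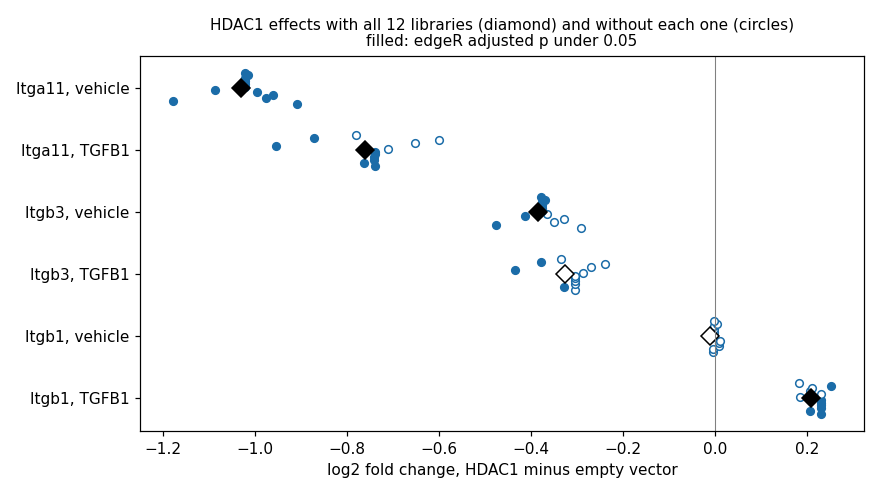
HDAC1 effect (log2 fold change, HDAC1 minus empty vector) on Itga11, Itgb3 and Itgb1 under each treatment with all 12 libraries (diamonds) and without each library in turn (circles); filled symbols have an edgeR adjusted p under 0.05. The Itga11 values in vehicle stay filled throughout, from -1.18 to -0.91, whereas those of Itga11 and Itgb1 with TGFB1 and of Itgb3 in vehicle are partly open.

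Genes of the ligands of these receptors were listed as well. Of 23 tested ligand genes, 15 rose and 3 fell with TGFB1 in empty vector cells, and 16 rose and 3 fell in HDAC1 cells, with median log2 changes of 0.42 and 0.56. That is 78.3% and 82.6% called, beside 50.9% and 49.1% of all genes. Among the laminin genes, Lamb3, the beta chain of laminin 332, rose from 11.5 to 346 CPM with the empty vector (log2 4.91 ± 0.08, edgeR adjusted p = 2.69e-20). Lama3, the alpha chain of the same laminin, rose 3.04-fold with the empty vector. Lamb2, a beta chain of other laminins, fell from 142 to 66.2 CPM with the empty vector (-1.10 ± 0.07), and Lamc1, the common gamma chain, from 776 to 572 CPM (-0.44 ± 0.07). Nid1, which links laminin to collagen IV, rose 2.20-fold with the empty vector and 2.38-fold with HDAC1. Thbs1, a matricellular ligand of several integrins, rose 2.14-fold and 2.28-fold, and Postn, a ligand of alpha v integrins, 6.15-fold and 6.92-fold. Fn1, the ligand of the alpha 5 beta 1 receptor, singled out after its values were seen, rose 1.67-fold and 1.92-fold.

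With HDAC1, 2 of the 23 ligand genes were higher and 7 lower in vehicle, and 1 was higher and 4 lower with TGFB1. That is 39.1% and 21.7% called, beside 14% and 6.53% of all genes, and with the heart and brain covariate 0 were higher and 1, Ccn2, was lower with TGFB1. The number called with TGFB1 was 2 without replicate 1 or 3 of HDAC1 with TGFB1. It was 3 without replicate 1 or 3 of empty vector with TGFB1. Ccn2, a matricellular ligand, was 1.53-fold lower in vehicle (edgeR adjusted p = 0.00104) and 1.63-fold lower with TGFB1 (edgeR adjusted p = 0.00123). Col4a1 and Col4a2, the basement membrane collagen ligands of alpha 1 beta 1, were 1.32-fold and 1.36-fold lower in vehicle, and Lamc1 1.29-fold lower. Tnc and Ccn1 were lower with TGFB1, at -0.26 and -0.64 on the log2 scale. Both calls ended without replicate 1 (-0.22 and -0.54) or 3 (-0.26 and -0.67) of HDAC1 with TGFB1, without empty vector with TGFB1 replicate 1 (-0.20 and -0.57) and with the covariate (-0.25 and -0.72), and that of Ccn1 also without empty vector with TGFB1 replicate 3 (-0.54). Lama3 was higher with HDAC1 under both treatments, by 0.55 in vehicle and 0.52 with TGFB1 on the log2 scale, the latter not with the covariate (0.46, edgeR adjusted p = 0.192).

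**Figure D5:**
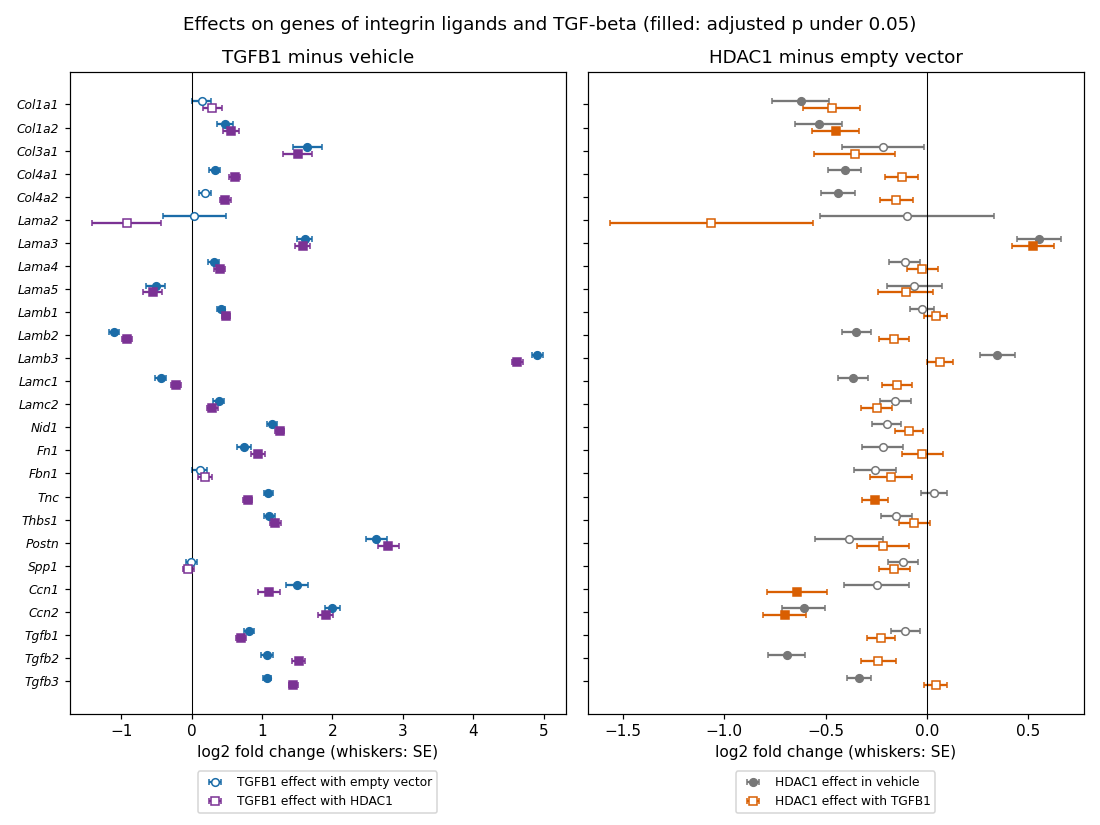
Log2 fold change with SE of the 23 tested integrin ligand genes and the 3 TGF-beta genes for TGFB1 minus vehicle (left) and HDAC1 minus empty vector (right); filled symbols have an edgeR adjusted p under 0.05. Lamb3 lies farthest right on the left panel, at 4.91 with the empty vector, and Ccn2 lies left of 0 for HDAC1 under both treatments, at -0.61 and -0.70.

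Another list held the TGF-beta genes, the latent TGF-beta binding protein family and Lrrc32. Binding of their products to integrins was not measured. Of 8 tested, 5 rose and 1 fell with TGFB1 under either plasmid, while 3 were lower with HDAC1 in vehicle and 2 with TGFB1. That is 75% called for TGFB1 under either plasmid, beside 50.9% and 49.1% of all genes, and 37.5% and 25% for HDAC1, beside 14% and 6.53%. With the heart and brain covariate, 0 of the 8 were called for HDAC1 with TGFB1. The number was also 0 without replicate 1 of HDAC1 with TGFB1 or of empty vector with TGFB1. It was 1 without HDAC1 with TGFB1 replicate 3. Tgfb3 rose 2.10-fold with the empty vector and 2.72-fold with HDAC1, and its interaction was 0.38 ± 0.08 (edgeR adjusted p = 0.0399). That call ended without any 1 of 9 of the 12 libraries (0.35 to 0.41, edgeR adjusted p = 0.0656 to 0.12; all but replicates 3 of empty vector with vehicle and 2 and 3 of empty vector with TGFB1) and with the covariate (0.28, edgeR adjusted p = 0.862). Tgfb2 was at 35.4 CPM in empty vector with vehicle and 21.8 CPM in HDAC1 with vehicle (edgeR adjusted p = 5.12e-05), and rose 2.10-fold and 2.88-fold with TGFB1. Ltbp2, of the latent TGF-beta binding protein family, was 1.36-fold lower with HDAC1 in vehicle and 1.23-fold lower with TGFB1 (log2 -0.30). The latter call ended without replicate 1 (-0.25) or 3 (-0.30) of HDAC1 with TGFB1, without empty vector with TGFB1 replicate 1 (-0.20) and with the covariate (-0.37, edgeR adjusted p = 0.129). Lrrc32, which anchors latent TGF-beta for alpha v beta 8, was 1.48-fold lower with HDAC1 in the presence of TGFB1 (log2 -0.57, edgeR adjusted p = 0.0088), a call that ended without replicate 1 of HDAC1 with TGFB1 (-0.49) or of empty vector with TGFB1 (-0.47) and with the covariate (-0.68, edgeR adjusted p = 0.0619).

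Inside the cell, 40 adaptor and signalling genes of integrin adhesions were tested. With TGFB1, 19 rose and 7 fell in empty vector cells and 18 rose and 8 fell in HDAC1 cells, 65% under either plasmid, beside 50.9% and 49.1% of all genes. Nedd9, a docking protein of focal adhesions, rose 3.09-fold with the empty vector and 3.36-fold with HDAC1. Parvb, a partner of integrin-linked kinase, rose 1.68-fold and 1.60-fold, and Csk, the kinase that restrains SRC, 1.57-fold and 1.61-fold, whereas Tns2, a tensin, was 1.72-fold and 1.63-fold lower. With HDAC1, 1 of the 40 was higher and 7 were lower in vehicle, and 0 were higher and 2 lower with TGFB1. That is 20% and 5% called, beside 14% and 6.53% of all genes, and the share with TGFB1 is near that background. In vehicle the number called ran from 1 to 11 over the fits that left out 1 library. The 2 were Tgfb1i1 (Hic-5), at -0.47 ± 0.09 with TGFB1 and -0.37 ± 0.10 in vehicle, and Fblim1 (migfilin), at -0.49 ± 0.12 and -0.46 ± 0.13, both called under both treatments. With the covariate neither was called with TGFB1 (edgeR adjusted p = 0.0929 and 0.27), and without HDAC1 with TGFB1 replicate 1 neither was either (-0.40 and -0.53); Fblim1 also lost it without replicate 3 of HDAC1 with TGFB1 (-0.39) or of empty vector with TGFB1 (-0.40). In vehicle both lost their call without replicate 1 of HDAC1 (-0.34 and -0.36), and without replicate 1 (-0.34 and -0.43) or 2 (-0.33 and -0.37) of the empty vector. Tgfb1i1 also lost it without HDAC1 vehicle replicate 3 (-0.35), and Fblim1 without replicate 2 (-0.44). Ptk2b, a focal adhesion kinase relative, was higher with HDAC1 in vehicle, at 10.2 against 5.86 CPM (edgeR adjusted p = 0.00777).

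The genes whose levels ran most like those of the 3 members with the widest range of group means were named by Pearson's r of log2 CPM over the 12 libraries, among 9733 genes. For Itga1 they were Ctnnd1 (r = 0.995), Nhsl1 and Adam12 (both 0.9945). For Itgb3 they were Galnt10 (0.9958), Nuak1 (0.9935) and Dennd2b (0.9931), and for Itga3 they were Ppl (0.996), Mgat3 (0.9957) and Niban1 (0.9951). The libraries of a treatment lie close together, so these values mostly describe a shared difference between treatments.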

How the data were processed

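RNA from 12 libraries was measured. The tools named per the submitters' processing notes are Trim Galore 0.6.7, featureCounts of Subread 2.0.1 and DESeq2 1.44. The build named there is mouse mm10, although the tables use rat Ensembl identifiers; the aligner and rat build are not given in the sources used here. The authors deposited raw counts per gene and a normalized signal, which is the count divided by 1 constant per library, for the 14275 genes with at least 100 counts in all; it served for symbols.

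Counts of 43360 genes were filtered with filterByExpr (14601 kept, with 99.879% or more of the counts per library) and TMM scaled. A robust edgeR 4.0.16 quasi-likelihood model (R 4.3.3) with 1 mean per group was fitted over all 12 libraries (8 residual degrees of freedom, common biological variation 7.61%). Tests were two-sided, and p-values were adjusted by Benjamini-Hochberg across the 14601 genes and called under 0.05. SE is the size of the log2 fold change divided by the square root of F. CPM are counts scaled with TMM by edgeR's cpm function, and CPM of different genes were not compared, since gene lengths were not used. Replicates of a group were more different than sampling noise, so no library was counted as a copy. The script was tested on simulated data.

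The members and lists were chosen with earlier results of these data known. All members are named; per list and comparison, up to 4 genes with the smallest adjusted p and any integrin subunit may be named. Alternatives were DESeq2 1.42.0, its size factors, other filters, fits to the groups compared, a replicate block, a heart and brain marker covariate and leaving out each library; for genes and counts of the lists they were added after seeing the data.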

Additional observations from a re-analysis of the deposited data

How the results depend on the processing

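All 7 TGFB1 calls of members with the empty vector and all 8 with HDAC1, and the Itga11 call in vehicle, were kept in each of the 12 fits without 1 library and in the 7 other settings. Interaction calls over all genes were 70, against 275 with DESeq2 (1 member against 0), 479 without the filter on low counts and 0 with the heart and brain covariate; the cause was not tested. With that covariate HDAC1 called 1 member in vehicle and 0 with TGFB1, against 2 and 2, and 95 genes with TGFB1 against 954. In the TGFB1 libraries the covariate did not overlap between the plasmids, so its part cannot be told apart from HDAC1. With TGFB1, HDAC1 called 1 member when only the groups compared were fitted, and 1 member with the replicate block, where Itgb1 lost its call (edgeR adjusted p = 0.0671). Replicate numbers do not pair the libraries: same-numbered libraries correlated at -0.087 to 0.118 in 18 pairs, and 6 of 12 correlated best with their own number.

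Values near 0 changed sign. With HDAC1 in vehicle, Itgb1 became slightly positive with a mean CPM of at least 1 (0.00779), with only the groups compared (0.00532) and with the covariate (0.00632). With the covariate, HDAC1 with TGFB1 gave 0.0652 for Itgb8, and the interaction gave -0.0589 for Itga5, -0.0236 for Itgb3 and 0.0340 for Itgb8.

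Without each library in turn, HDAC1 called 1144 to 2679 genes and 1 to 3 members in vehicle, and 237 to 1251 genes and 0 to 3 members with TGFB1. TGFB1 called 6633 to 7511 genes and 7 to 8 members with the empty vector, and 6210 to 7657 genes and 8 to 9 members with HDAC1. The interaction called 3 to 257 genes, the lowest without HDAC1 with TGFB1 replicate 3 and the highest without empty vector vehicle replicate 3. Uncalled values that changed sign were, for HDAC1 with TGFB1, Itga1 (-0.0867 to 0.18), Itga3 (-0.13 to 0.0159), Itga5 (-0.0716 to 2.04e-05), Itgav (-0.0623 to 0.0839) and Itgb8 (-0.74 to 0.0864). Others were Itgb1 for HDAC1 in vehicle (-0.00902 to 0.0110), Itga11 for TGFB1 with HDAC1 (-0.31 to 0.0406), Itgav for TGFB1 with the empty vector (-0.00582 to 0.14) and Itgb3 for the interaction (-0.0585 to 0.149). Precision is limited by 3 libraries a group and, for Itgb8, by its low counts.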

Other observations

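Membrane partners of integrins formed another list, of 12 tested genes. With TGFB1, 3 rose and 7 fell in empty vector cells, and 4 rose and 6 fell in HDAC1 cells, 83.3% under either plasmid, beside 50.9% and 49.1% of all genes; with the heart and brain covariate 2 rose and 4 fell in HDAC1 cells. Cav1, the caveolin that associates with integrin signalling, was 2.45-fold lower with the empty vector and 2.44-fold lower with HDAC1. Plaur, the urokinase receptor, rose 2.05-fold and 1.93-fold. Tspan4, a tetraspanin, fell by 0.48 and 0.41 on the log2 scale, and was also lower with HDAC1 in vehicle (-0.30), a call that ended without HDAC1 vehicle replicate 3 (-0.24) or empty vector vehicle replicate 1 (-0.24). Sdc1, a syndecan, was 1.29-fold higher with HDAC1 in vehicle and 1.17-fold higher with TGFB1 (log2 0.23). The latter call ended without replicate 1 (0.24), 2 (0.23) or 3 (0.21) of HDAC1 with TGFB1, without empty vector with TGFB1 replicate 1 (0.22) and with the covariate (0.17, edgeR adjusted p = 0.449).

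Within groups, after each group's mean was removed, the highest correlations of 2 members over the 12 libraries were those of Itga11 with Itgb3 (r = 0.923) and of Itga6 with Itgav (r = 0.914). They were picked as the highest of all pairs of members, and the libraries share their depth and scaling.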
